A study of Mus musculus with 8 samples.

Results

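The serpins are a family of proteins that share a fold, and most of them inhibit serine proteases. An inhibitory serpin offers a loop as bait, is cut there and then traps the protease in a covalent complex, so each molecule is used up. Hepatocytes secrete many of them into plasma, where they restrain clotting, fibrinolysis, complement and elastase, while members of clade B stay mostly inside cells. Some serpins inhibit nothing and instead carry hormones or help fold collagen. The genes described here are the 48 whose symbol starts with Serpin and that have a probe set assigned to that symbol only, of 19937 genes measured by the same rule. None of the 48 had more than 1 such probe set. Clade A had 15 of them, clade B 24, clades F and I 2 each, and clades C, D, E, G and H 1 each. All 48 matched a RefSeq gene by gene ID, and Serpina4-ps1 is annotated there as a transcribed pseudogene.

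RNA came from cultured hepatocytes of male BALB/c mice on 8 whole-transcript arrays, 2 a group. The control group was labelled HO1+/+ and given scrambled shRNA. Another was labelled HO1-/- (null for heme oxygenase 1, encoded by Hmox1) and given scrambled shRNA. In a further pair of groups the lentivirus carried shRNA against HO2 (heme oxygenase 2, encoded by Hmox2), in cells labelled HO1+/+ (the HO2 shRNA group) or HO1-/- (the combined group). Every group was transduced and kept in puromycin for 3 days, then received a 30 min pulse of dexamethasone at 1 µM and was collected 28 h later. The labels give no age of the mice, name 1 HO2 hairpin, and call the replicates biological without saying whether they are separate animals or cultures, so p-values reflect only the spread among these arrays, which may be technical. Genotype and hepatocyte preparation cannot be told apart.

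Values are log2 signals. A gene was called where limma's p, adjusted by Benjamini-Hochberg over all 19937 genes, was under 0.05, and the words rose and fell are used for called genes only. Comparisons rest on 2 arrays against 2, and SE stands for the standard error of such a log2 difference after moderation. Hmox2 fell by 3.14 with HO2 shRNA in HO1+/+ cells and fell by 2.30 in cells labelled HO1-/-. Hmox1 was 0.54 higher, not lower, in the arrays labelled HO1-/- than in control. No label says which exons are deleted, so every direction for HO1 rests on the labels. The hepatocyte gene Alb, for albumin, read between 13.32 and 13.99 in all 8 arrays. The summed linear signal of 11 of 12 hepatocyte markers was 51163 to 52005 in control, 64362 to 64749 in the arrays labelled HO1-/-, 94906 to 99041 with HO2 shRNA and 100892 to 103455 in combined. That of all 15 macrophage markers was 3141 to 3293 in control, 27513 to 28253 in the arrays labelled HO1-/-, 3024 to 3238 with HO2 shRNA and 29279 to 30810 in combined. Of these 15, 9 rose and 1, Vsig4, fell (by 1.07) in the arrays labelled HO1-/-. The 5 not called were Clec4f, Marco, Cd163, Timd4 and Ccr2, at -0.04, 0.15, 0.05, -0.05 and 0.13 (log2 difference). The part of the hepatocyte and macrophage markers in the differences given for the HO1 label was not tested. In a bulk sample, fewer cells of a type and less RNA per cell cannot be told apart.

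Of the 48 serpin genes, 24 were called in at least 1 of 6 comparisons, a share near the 54.5% of all genes tested. With scrambled shRNA, 8 rose and 7 fell in the arrays labelled HO1-/- against control, or 16.7% and 14.6% of the members, beside 5.62% and 7.2% of all genes tested (15 of 48, beside 12.8%). The falls numbered 4 without HO1-/- replicate 1. The split was 6 up and 8 down after centring arrays on their medians. With HO2 shRNA in HO1+/+ cells, 11 rose and 3 fell (22.9% and 6.25%), beside 16.5% and 16.7% of all genes, so the total of 14 lay near the background of 33.2%. In cells labelled HO1-/-, HO2 shRNA went with 12 rises and 5 falls, beside 10.2% and 12.8% of all genes (17 of 48, beside 23%). Under HO2 shRNA, the genotype contrast (combined minus HO2 shRNA) had 6 rises and 8 falls, beside 13% and 21% of all genes (14 of 48, beside 34%), and 4 and 10 after centring. Combined against control had 10 rises and 9 falls, beside 11.6% and 18.3% (19 of 48, beside 29.9%). Calls of at least 2-fold numbered 5 of 48 (10.4%) for the HO1 label with scrambled shRNA, beside 1.53% of all genes, and 5 with HO2 shRNA in HO1+/+ cells, beside 1.98%. They also numbered 5 with HO2 shRNA in cells labelled HO1-/- (1.49% of all genes), 5 for combined against control (3.02%), 1 for the genotype contrast under HO2 shRNA (1.63%) and 1 for the interaction (0.522%). Median log2 differences of the 48 members lay close to those of all genes: -0.0062 beside -0.041 for the HO1 label with scrambled shRNA, and 0.020 beside -0.066 for HO2 shRNA in HO1+/+ cells. The changes sat in a limited set of members, and 24 genes were never called, with log2 differences between -0.26 and 0.22 in the 5 pairwise comparisons.

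The largest difference among the 48 was that of Serpinf2, which belongs with the plasma inhibitors of clotting, fibrinolysis and complement. In HO1+/+ cells, 4 of these 6 inhibitor genes rose with HO2 shRNA and 0 fell, with a median of 0.76 on the log2 scale, beside -0.066 for all genes, of which 16.5% rose and 16.7% fell. In cells labelled HO1-/-, 4 rose and 1 fell (median 0.60, beside 0.014), and 10.2% and 12.8% of all genes did. Hepatocyte markers moved likewise. Of 11 measured, 9 rose and 1 fell with HO2 shRNA in HO1+/+ cells (median 0.84). In cells labelled HO1-/- 8 rose and 0 fell (median 0.47). The part of these markers in the inhibitor differences was not tested. Serpinf2, which encodes the main inhibitor of plasmin, read 8.93 and 8.92 in control, 9.88 and 10.08 in the arrays labelled HO1-/-, 11.62 and 11.55 with HO2 shRNA and 12.02 and 11.98 in combined (log2 signal). The 4 groups did not overlap and increased in that order. Serpinf2 was 2.66 higher with HO2 shRNA in HO1+/+ cells (SE 0.065, limma adjusted p = 9.4e-14), or 6.31-fold, and 2.02 higher in cells labelled HO1-/-, or 4.07-fold. The difference between these effects was -0.63 (SE 0.092, adjusted p = 0.000348).

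Serpina10 encodes the protein Z-dependent inhibitor of clotting factor Xa. Its log2 signal was 8.76 and 8.72 in control, 9.97 and 9.85 in the arrays labelled HO1-/-, 10.04 and 10.10 with HO2 shRNA and 10.36 in both combined arrays. Control stood apart below all 6 other arrays. Either perturbation alone went with a rise of similar size, 1.17 for the HO1 label and 1.34 for HO2 shRNA (SE 0.066 for both), and these 2 differences share the control arrays. Together they gave 1.62, and the interaction was -0.89 (SE 0.093, limma adjusted p = 2.4e-05), so HO2 shRNA added 0.45 in cells labelled HO1-/-.

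Serpinc1, for antithrombin, which inhibits thrombin and factor Xa, read 7.79 and 7.67 in control, 7.86 and 8.00 in the arrays labelled HO1-/-, 8.71 and 8.61 with HO2 shRNA and 8.92 and 9.0 in combined (log2 signal). The arrays divided by hairpin, with all 4 HO2 shRNA arrays above all 4 scrambled arrays. The rise with HO2 shRNA was 0.94 in HO1+/+ cells (adjusted p = 7.47e-07) and 1.03 in cells labelled HO1-/- (limma adjusted p = 3.39e-07), and the interaction was not called (0.10, 95% interval -0.18 to 0.37). Serpind1, for heparin cofactor II, another thrombin inhibitor, rose by 0.58 and 0.75 in the same comparisons, with -0.02 for the HO1 label. The hepatocyte markers given above were higher in the same HO2 shRNA arrays, and their part in these rises was not tested.

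Serping1, which encodes the inhibitor of the first complement component and of plasma kallikrein, had another pattern. It read 12.33 and 12.42 in control, 12.70 and 12.76 in the arrays labelled HO1-/-, 12.45 and 12.38 with HO2 shRNA and 12.32 and 12.39 in combined (log2 signal). Only the arrays labelled HO1-/- with scrambled shRNA stood apart, 0.36 above control (SE 0.046, limma adjusted p = 4.33e-05). HO2 shRNA made a difference of 0.04 in HO1+/+ cells and of -0.38 in cells labelled HO1-/-, and the interaction was -0.42 (adjusted p = 0.000661). Serpina5, for the inhibitor of activated protein C, was not called in any comparison.

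**Figure D1:**
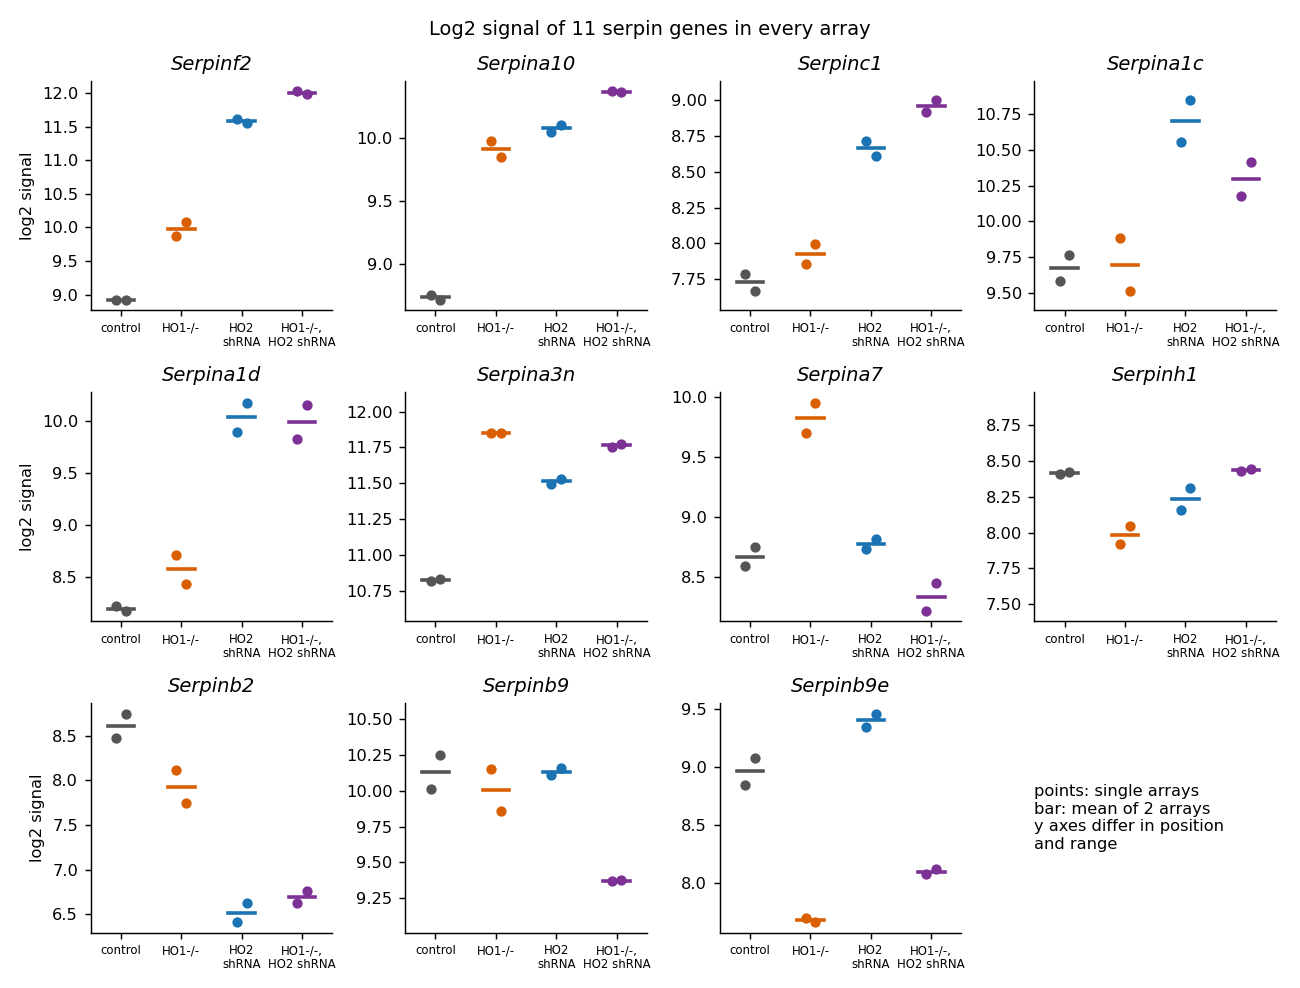
Log2 signal (y axis) of 11 serpin genes in each of the 8 arrays, grouped on the x axis by genotype label and hairpin; points are arrays and bars are means of 2. Serpinf2 runs from 8.92 to 12.02, Serpina7 is highest in the arrays labelled HO1-/- with scrambled shRNA, and Serpinb9e is lower in the 4 arrays labelled HO1-/- than in the other 4.

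Antitrypsin, the plasma inhibitor of neutrophil elastase, is encoded in the mouse by several near-identical Serpina1 genes, and the genes of the Serpina3 group are relatives of antichymotrypsin. Signal of such copies may be shared between probe sets, so values of single copies are uncertain. Serpina1d read 8.21 and 8.17 in control, 8.71 and 8.43 in the arrays labelled HO1-/-, 9.90 and 10.18 with HO2 shRNA and 9.83 and 10.16 in combined (log2 signal). Scrambled and HO2 shRNA arrays did not overlap. The rise was 1.85 in HO1+/+ cells (SE 0.12, limma adjusted p = 5.34e-09), or 3.61-fold, and 1.43 in cells labelled HO1-/- (adjusted p = 1.56e-07). The difference of 0.38 with the HO1 label was called (adjusted p = 0.0406) but lost under 8 of 16 alternatives, with adjusted p up to 0.369.

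Serpina1c, its neighbour in the measured order on chromosome 12, had log2 signals of 9.59 and 9.77 in control, 9.88 and 9.51 in the arrays labelled HO1-/-, 10.56 and 10.85 with HO2 shRNA and 10.18 and 10.42 in combined. Arrays of control and of the HO1-/- label overlapped here. It rose by 1.02 with HO2 shRNA in HO1+/+ cells (SE 0.12, limma adjusted p = 4.25e-06) and by 0.60 in cells labelled HO1-/-. Combined was 0.40 below HO2 shRNA alone (adjusted p = 0.0142), a call lost under 5 of 16 alternatives, without HO2 shRNA replicate 2 (-0.26) and without combined replicate 1 (-0.28) among them. The interaction was -0.43 for both genes and called for neither (limma adjusted p = 0.104 for Serpina1d and 0.105 for Serpina1c), with 95% intervals of -0.77 to -0.076 for Serpina1d and -0.78 to -0.075 for Serpina1c.

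Serpina1c and Serpina1d moved together with HO2 shRNA, and RefSeq (build GRCm38.p6) gives 84.3% identity over the 250 bases before their starts. The 120 bases before the start are shown for these genes, and for Serpina7, described further on, before 1 of its 2 annotated starts. These 3 are among the 6 members with a match to the HNF1 letters. The others with a match were Serpinb8 and the never called Serpinb3d and Serpini2. Serpinf2, Serpinc1 and Serpind1, which also rose with HO2 shRNA, had no such match, and Serpina7 did not rise with HO2 shRNA. Whether the letters go with the rises was not tested. Capitals mark matches to the motifs listed next; both strands were searched.
Serpina1c, minus strand of chr12:103904951-103905070: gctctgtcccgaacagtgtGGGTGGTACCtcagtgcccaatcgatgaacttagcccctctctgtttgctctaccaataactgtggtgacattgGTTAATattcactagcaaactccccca
Serpina1d, minus strand of chr12:103773634-103773753: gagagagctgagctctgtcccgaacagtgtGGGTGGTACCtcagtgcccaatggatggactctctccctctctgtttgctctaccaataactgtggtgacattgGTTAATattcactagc
Serpina7, minus strand of chrX:139085237-139085356: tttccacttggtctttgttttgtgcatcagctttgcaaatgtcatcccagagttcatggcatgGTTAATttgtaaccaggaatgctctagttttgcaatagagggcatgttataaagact

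Of the 48 members, 41 were in the promoter table, and matches were counted in the 250 bases before any annotated start. The letters GTTAAT, part of the binding site of the hepatocyte factor HNF1, were found in 6 of 41 members, beside 7.5% of all 27025 genes in that table. The E-box CACGTG was in 0 of 41 (6.9% of all genes), the STAT letters TTCNNNGAA in 5 (8.1%), a loose NF-kB motif in 13 (48.7%) and the glucocorticoid receptor letters AGAACA in 14 (18.2%). Matches of different motifs may overlap. A match describes letters and not a bound site, and the absence of a match covers this window only.

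Serpina3n, a secreted relative of antichymotrypsin known as an acute phase gene, read 10.82 and 10.83 in control, 11.85 in both arrays labelled HO1-/-, 11.50 and 11.53 with HO2 shRNA and 11.76 and 11.78 in combined (log2 signal). Groups did not overlap and control was lowest. It rose by 1.02 with the HO1 label (SE 0.045, limma adjusted p = 8.04e-11) and by 0.69 with HO2 shRNA, both against the same control arrays. HO2 shRNA gave -0.08 in cells labelled HO1-/-, and the interaction was -0.77 (SE 0.064, adjusted p = 2.06e-06). Under HO2 shRNA the HO1 label still went with a rise, of 0.25.

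Apart from Serpina6 and Serpina7, described next, the remaining genes of clade A moved less than Serpina3n. Serpina12, for the adipokine vaspin, fell by 0.50 with HO2 shRNA in HO1+/+ cells, where Serpina16 and Serpina11 were not called. Serpina11 was 0.35 higher in combined than in control, a call lost under 6 of 16 alternatives, and Serpina16 was 0.24 higher in combined than in HO2 shRNA, lost under 10 of 16. Serpina1f, Serpina3a, Serpina3b, Serpina4-ps1 and Serpina9 were never called.

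The genes of both hormone carriers diverged. Serpina7 encodes thyroxine-binding globulin, which carries thyroid hormone in blood. Its log2 signal was 8.59 and 8.75 in control, 9.71 and 9.96 in the arrays labelled HO1-/-, 8.74 and 8.82 with HO2 shRNA and 8.22 and 8.45 in combined. The arrays labelled HO1-/- were highest with scrambled shRNA and lowest with HO2 shRNA. Serpina7 rose by 1.16 with the HO1 label under scrambled shRNA (SE 0.10, limma adjusted p = 4.1e-07), or 2.24-fold, but fell by 0.44 under HO2 shRNA (adjusted p = 0.00308). The second of these calls was lost without combined replicate 1 (-0.33, adjusted p = 0.0613). HO2 shRNA made no called difference in HO1+/+ cells (0.11, 95% interval -0.11 to 0.32) and a fall in cells labelled HO1-/- (adjusted p = 1.74e-08), which fell by 1.498 to 35.4% of the signal with scrambled shRNA. The interaction of -1.60 (SE 0.14, adjusted p = 3.54e-06) was the largest among the 48 members, and Serpina7 was the only member called in opposite directions for the HO1 label under the 2 hairpins.

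Serpina6, for corticosteroid-binding globulin, which carries glucocorticoids, read 6.55 and 6.63 in control, 6.77 and 6.92 in the arrays labelled HO1-/-, 7.13 and 7.14 with HO2 shRNA and 7.37 and 7.25 in combined (log2 signal). All 4 HO2 shRNA arrays were above all 4 scrambled arrays. The rise was 0.55 in HO1+/+ cells (SE 0.10, limma adjusted p = 0.000527) and 0.47 in cells labelled HO1-/- (adjusted p = 0.00256, and 0.0504 without combined replicate 1). Agt, for angiotensinogen, belongs to the same fold but not to the 48, because its symbol differs. It rose by 1.01 with the HO1 label and by 1.58 with HO2 shRNA in HO1+/+ cells, and its interaction was -0.87.

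Serpinh1 encodes the collagen chaperone HSP47 of the endoplasmic reticulum, which inhibits no protease. It read 8.41 and 8.42 in control, 7.92 and 8.05 in the arrays labelled HO1-/-, 8.16 and 8.31 with HO2 shRNA and 8.43 and 8.44 in combined (log2 signal). The arrays labelled HO1-/- with scrambled shRNA were lowest and control and combined were highest. Serpinh1 fell by 0.43 with the HO1 label (SE 0.089, limma adjusted p = 0.00332, and 0.0552 without HO1-/- replicate 1), rose by 0.46 with HO2 shRNA in cells labelled HO1-/-, and had an interaction of 0.63 (adjusted p = 0.00392). Of 11 genes for collagens and their processing partners, 0 rose and 2 fell with the HO1 label (median -0.047, beside -0.041 for all genes, of which 5.62% rose and 7.2% fell). With HO2 shRNA in cells labelled HO1-/- 4 rose and 0 fell (median 0.12, beside 0.014 for all genes, of which 10.2% rose and 12.8% fell). Col1a1 changed by -0.42 and 0.30 in these comparisons and Col1a2 by -0.37 and 0.29. The summed linear signal of 8 stellate cell and fibroblast markers was 6909 to 7031 in control, 6035 to 6323 in the arrays labelled HO1-/-, 7270 to 7373 with HO2 shRNA and 6850 to 7008 in combined. The sum was thus highest with HO2 shRNA in HO1+/+ cells. Of the 8 markers, 3 rose and 3 fell there against control (median 0.07), beside 16.5% and 16.7% of all genes. Serpinh1 was there at -0.18 against control, not called (limma adjusted p = 0.139). The part of these markers in the Serpinh1 differences was not tested. Serpinf1, for pigment epithelium-derived factor, differed by 0.18 with the HO1 label, a call lost under 6 of 16 alternatives.

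**Figure D2:**
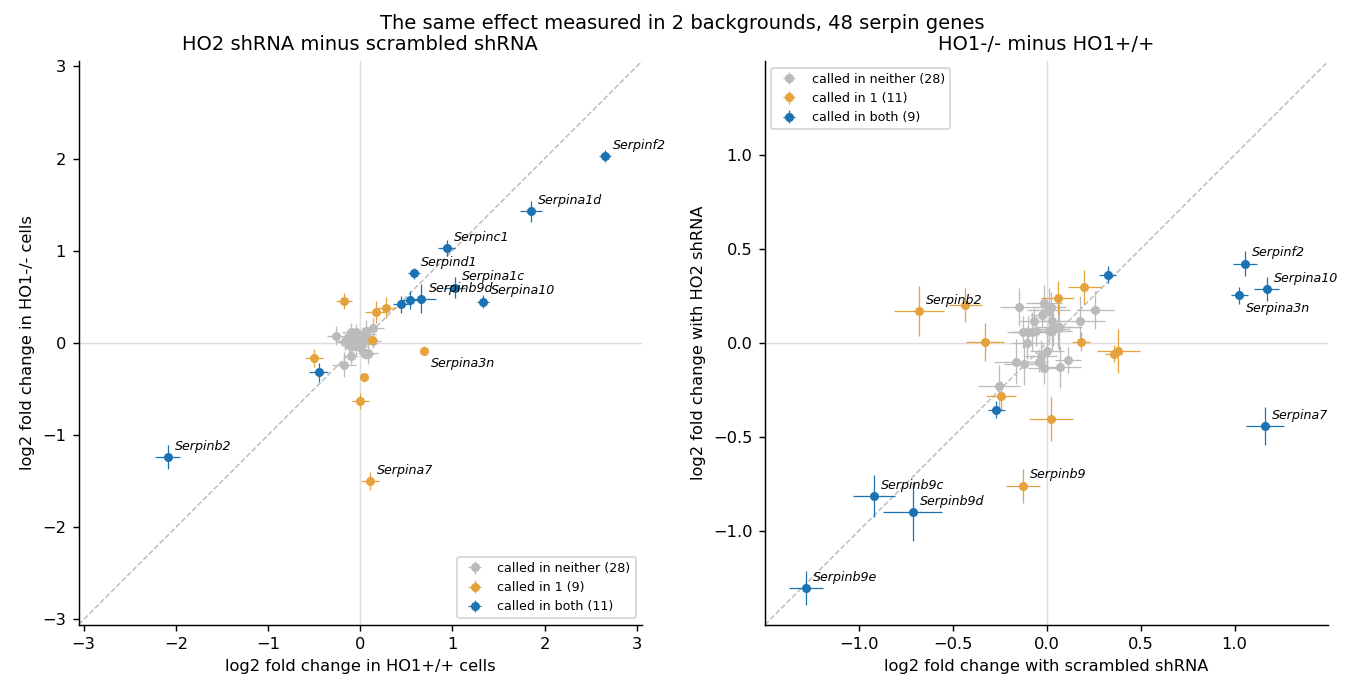
Log2 fold changes of the 48 serpin genes, with SE bars, for HO2 shRNA against scrambled shRNA in cells labelled HO1+/+ (x axis) and HO1-/- (y axis), left, and for the HO1-/- label under scrambled (x) and HO2 shRNA (y), right; the dashed line marks equal effects. Serpinf2 lies at 2.66 and 2.02 on the left, and Serpina7 at 1.16 and -0.44 on the right.

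The effect of HO2 shRNA could be compared between genotypes without shared arrays. Rises in both were called for 9 members, Serpina10, Serpina1c, Serpina1d, Serpina6, Serpinb9d, Serpinb9e, Serpinc1, Serpind1 and Serpinf2, and falls in both for 2, Serpinb1b and Serpinb2. The calls of Serpinb9d and Serpinb1b in cells labelled HO1-/- were lost under 7 and 5 of 16 alternatives. Beside these 9 and 2 of 48, 7.35% of all genes rose in both and 7.35% fell in both. For the HO1 label under either hairpin, 4 members rose in both (Serpina10, Serpina3n, Serpinb6b and Serpinf2; 3.5% of all genes) and 4 fell in both (Serpinb9b, Serpinb9c, Serpinb9d and Serpinb9e; 4.15% of all genes). The interaction was called for 8 members, 2 positive and 6 negative, beside 4.67% and 7.57% of all genes (8 of 48, beside 12.2%).

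Clade B holds the members that act mostly inside cells. With HO2 shRNA in HO1+/+ cells 3 of its 24 members rose and 2 fell, beside 16.5% and 16.7% of all genes. With the HO1 label 1 rose and 5 fell, beside 5.62% and 7.2%. Of the 24, 16 were dim, with a mean log2 signal under 7.05, the 30th percentile of all genes. Among all 48 members, 4 of 27 dim genes and 10 of 21 others were called with HO2 shRNA in HO1+/+ cells. Of all genes, dim and others together, 33.2% were called there. That share was not split by signal, so the split of the members has no background beside it. The largest clade B fall in any comparison was that of Serpinb2 with HO2 shRNA in HO1+/+ cells. With the HO1 label under scrambled shRNA the largest was that of Serpinb9e (-1.28), described further on. Serpinb2 encodes plasminogen activator inhibitor type 2, an inhibitor of urokinase also made by activated macrophages. Serpinb2 read 8.47 and 8.75 in control, 8.12 and 7.74 in the arrays labelled HO1-/-, 6.41 and 6.62 with HO2 shRNA and 6.62 and 6.75 in combined (log2 signal). The arrays divided by hairpin, all 4 with HO2 shRNA lying below all 4 with scrambled shRNA. HO2 shRNA left 23.5% of the control signal in HO1+/+ cells, where Serpinb2 fell by 2.09 (SE 0.13, limma adjusted p = 6.09e-09), and it fell by 1.24 in cells labelled HO1-/- (adjusted p = 3.08e-06). With the HO1 label Serpinb2 fell by 0.68 (limma adjusted p = 0.00218), while the macrophage markers given above were higher (their part was not tested). The difference was -0.49 without HO1-/- replicate 2, not called. The interaction was 0.85, and 0.74 without HO2 shRNA replicate 1, not called. Both calls were also lost when all probe sets were fitted and adjusted together (limma adjusted p = 0.065 for the HO1 label and 0.0939 for the interaction).

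Serpinb9 encodes a granzyme B inhibitor that protects cells from the contents of cytotoxic granules. Its log2 signal was 10.02 and 10.25 in control, 10.15 and 9.86 in the arrays labelled HO1-/-, 10.11 and 10.16 with HO2 shRNA and 9.37 and 9.38 in combined. Only combined stood apart, below all 6 other arrays. Neither perturbation alone made a called difference, -0.13 for the HO1 label and 0.00092 for HO2 shRNA, and combined was 0.76 below control (SE 0.090, limma adjusted p = 6.45e-06). The interaction was -0.63 (adjusted p = 0.00437), and 0.0769 when all probe sets of the table were fitted and adjusted together.

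The close relatives Serpinb9b, Serpinb9c, Serpinb9d and Serpinb9e instead fell with the HO1 label under both hairpins. Serpinb9e read 8.85 and 9.08 in control, 7.7 and 7.66 in the arrays labelled HO1-/-, 9.35 and 9.46 with HO2 shRNA and 8.08 and 8.12 in combined (log2 signal). All 4 arrays labelled HO1-/- were below all 4 labelled HO1+/+. The fall with the HO1 label was 1.28 under scrambled shRNA (SE 0.091, limma adjusted p = 3.56e-08) and 1.30 under HO2 shRNA (adjusted p = 2.8e-08), and the interaction was -0.02 (95% interval -0.30 to 0.25). HO2 shRNA went with rises of 0.44 and 0.42.

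Serpinb9c had log2 signals of 7.74 and 8.11 in control, 7.03 and 6.99 in the arrays labelled HO1-/-, 8.20 and 8.21 with HO2 shRNA and 7.4 and 7.39 in combined. The same division by genotype label appeared, with falls of 0.92 and 0.81 under the 2 hairpins (SE 0.11 for both). Serpinb9d, a dim gene at 5.26 to 7.03, fell by 0.71 and fell by 0.90. The first of these falls was not called without control replicate 2 or HO1-/- replicate 1. Nor was it called with all probe sets fitted together (limma adjusted p = 0.123). Serpinb9b, at 12.30 to 12.74, fell by 0.27 and 0.36. Falls were therefore seen in 4 of the 5 measured Serpinb9 genes under both hairpins, although near-identical copies may share signal.

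These genes lie near each other on chromosome 13, in the measured order Serpinb1a, Serpinb1c, Serpinb6b, Serpinb9, Serpinb9b, Serpinb1b, Serpinb9c, Serpinb9d, Serpinb9e, Serpinb6d, Serpinb6e, Serpinb6c and Serpinb6a. The change was not a shift of the whole cluster. Serpinb6b, 2 places before Serpinb9b, rose by 0.33 and 0.36 with the HO1 label under scrambled and HO2 shRNA (SE 0.045 for both), while Serpinb1b between Serpinb9b and Serpinb9c was at -0.08 and 0.06, not called. Of the 10 measured genes nearest outside the cluster, 5 on each side, 1 rose and 0 fell with the HO1 label under scrambled shRNA. Their log2 differences lay within -0.2733 to 0.1598, and 5.62% and 7.2% of all genes rose and fell. Under HO2 shRNA 1 of the 10 rose and 2 fell, within -0.44 to 0.46, beside 13% and 21% of all genes. Both ranges hold the change of Serpinb9b, at -0.2685 under scrambled and -0.3553 under HO2 shRNA. Among the 11 measured clade B genes of chromosome 1, only Serpinb2 and Serpinb8 were called in any comparison, beside 54.5% of all genes. The rest of these 11 genes were dim. Serpinb8 was 0.39 lower in combined than in control.

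**Figure D3:**
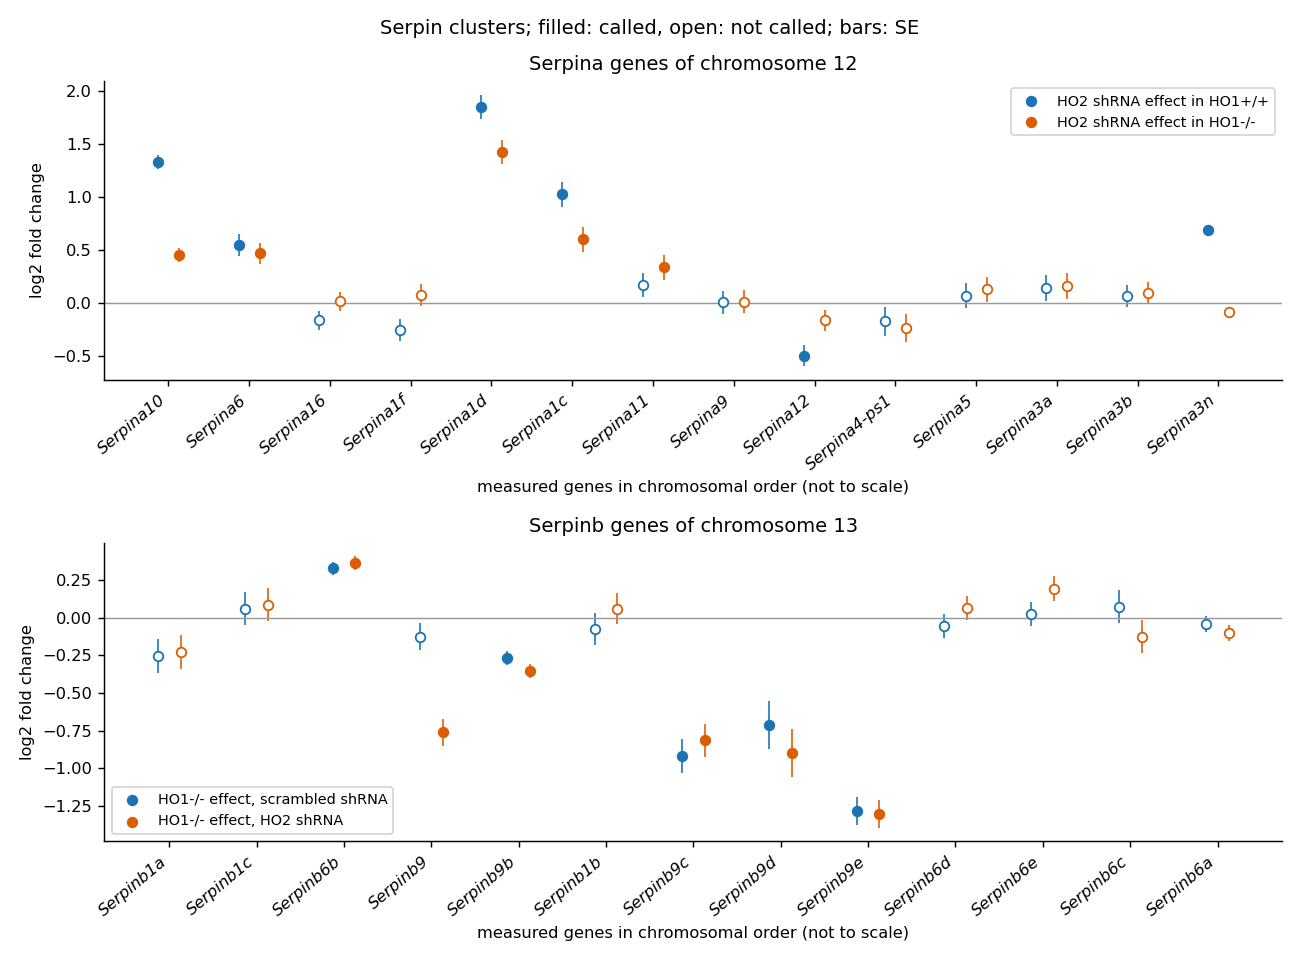
Log2 fold change (y axis) of the 14 Serpina genes of chromosome 12 with HO2 shRNA, top, and of the 13 Serpinb genes of chromosome 13 with the HO1-/- label, bottom, in chromosomal order (x axis, not to scale); filled points are called, open points are not, and bars are SE. On chromosome 13 the 4 genes Serpinb9b to Serpinb9e lie below 0 under both hairpins, and Serpinb6b lies above 0.

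The starts of Serpinb9d and Serpinb9e, which fell together with the HO1 label, are preceded by 250 bases that are 88.6% identical, while Serpinb9, which was called with the HO1 label under HO2 shRNA but not under scrambled shRNA, shares 47.8% and 46.9% with them. Serpinb9b, which fell under both hairpins, shares 45.9% and 48.2% with Serpinb9d and Serpinb9e. Serpinb9c, which also fell under both, shares 61.5% and 64.4% with them, the best of its 2 starts. Whether likeness before the start goes with the falls was not tested. The 120 bases nearest the starts of Serpinb9d and Serpinb9e follow, from RefSeq build GRCm38.p6, with motif matches in capitals as above.
Serpinb9d, plus strand of chr13:33192835-33192954: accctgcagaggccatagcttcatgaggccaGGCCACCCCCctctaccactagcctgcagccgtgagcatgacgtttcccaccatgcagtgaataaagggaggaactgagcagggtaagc
Serpinb9e, plus strand of chr13:33249488-33249607: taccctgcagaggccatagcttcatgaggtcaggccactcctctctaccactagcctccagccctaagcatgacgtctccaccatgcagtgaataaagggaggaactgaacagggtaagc

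Other members of clade B were not called. Serpinb6a, a relative of a cathepsin G inhibitor, read 11.65 to 11.82 over the 8 arrays, and Serpinb1a, an inhibitor of neutrophil elastase, 6.61 to 7.07. Of the 48 genes, 27 had a mean log2 signal under 7.05, the 30th percentile of all genes, and 22 of the 24 never called were among them. Serpini1, for neuroserpin, an inhibitor of tissue plasminogen activator, Serpini2 and Serpine3 were not called in any comparison.

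The proteases that serpins inhibit were described from a list of 27, of which 23 were measured. With the HO1 label 7 rose and 1 fell (median 0.078, beside -0.041 for all genes), where 5.62% and 7.2% of all genes did. With HO2 shRNA in HO1+/+ cells 10 rose and 3 fell (median 0.16, beside -0.066), where 16.5% and 16.7% of all genes did. In cells labelled HO1-/- 9 rose and 4 fell (median 0.14, beside 0.014), where 10.2% and 12.8% of all genes did. Plg, for plasminogen, whose active form is the target of the Serpinf2 product, read 7.61 and 7.46 in control, 8.16 and 8.37 in the arrays labelled HO1-/-, 10.88 and 11.002 with HO2 shRNA and 11.46 and 11.41 in combined (log2 signal). The groups fell in the same order as for Serpinf2. Plg rose by 3.40 with HO2 shRNA in HO1+/+ cells and by 3.17 in cells labelled HO1-/-. The clotting factor genes F12 and F10 rose by 1.86 and 0.98 with HO2 shRNA in HO1+/+ cells, and C1s1, a target of the Serping1 product, changed by -1.12 in cells labelled HO1-/-. F9 rose by 1.11 in HO1+/+ cells and had an interaction of -1.14.

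Of 12 measured cofactors and clearance receptors of serpins, 4 rose and 0 fell with the HO1 label (median 0.032, beside -0.041 for all genes, of which 5.62% rose and 7.2% fell). With HO2 shRNA in HO1+/+ cells 6 rose and 1 fell (median 0.16, beside -0.066 for all genes, of which 16.5% rose and 16.7% fell). Vtn, for vitronectin, a plasma and matrix adhesion protein, rose by 1.19 and 1.90 in these comparisons. Proz, for protein Z, the cofactor of the Serpina10 product, rose by 0.62 with HO2 shRNA in HO1+/+ cells and by 0.92 in cells labelled HO1-/-, and was at -0.16, not called, for the HO1 label, for which Serpina10 rose by 1.17.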

How the data were processed

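The authors deposited log2 signals for each probe set. RMA (robust multi-array averaging), the affy package and R 2.15.0 are named in the submitters' processing notes. Chip definition file and genome build: not given in the sources used here. Labelling began from 300 ng RNA per the labels. Of 34760 probe sets, 21640 carried exactly 1 symbol. The brightest per gene was kept, leaving 19937 genes. Of 53 probe sets naming a Serpin gene, 5 named several and were left out.

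Group means of all 8 arrays were fitted with limma 3.58.1 (R 4.3.3) with empirical Bayes moderation and a mean-variance trend (4 residual and 11.2 prior degrees of freedom), and 6 contrasts were tested, two-sided. The fit was tested on simulated data. Array medians ran from 7.61 to 7.7, and 2 arrays a group limit the precision. The members and lists were chosen with earlier results of these data known. Values in every array are given for members called and at least 2-fold apart, or called for the interaction by 0.5 or more, and for some others chosen after their values were seen. Up to 4 genes of another list were named by size of change in a comparison. Alignments used Biopython 1.88. Alternatives covered the variance model, array weights, scaling, dim genes, probe sets per gene, the replicate block and leaving out each array; a fit of all probe sets was added after seeing the data.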

Additional observations from a re-analysis of the deposited data

Results flagged for a closer look

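The effect of HO2 shRNA differed between the genotype labels for 8 members (interaction, limma adjusted p under 0.05). It was more negative in cells labelled HO1-/- for Serpina7 (-1.60), Serpina10 (-0.885), Serpina3n (-0.771), Serpinf2 (-0.634), Serpinb9 (-0.632) and Serping1 (-0.415), and more positive for Serpinb2 (0.849) and Serpinh1 (0.633), on the log2 scale.

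Signal above control was also seen in probe sets that no comparison used, because their annotation lists several Serpin genes. In a fit of all 34760 probe sets, those listing 5 Serpina1 genes were 1.05 higher (probe set 10402399) and 0.686 higher (probe set 10402409) with HO2 shRNA in HO1+/+ cells, and probe set 10402409 was 0.186 higher in the arrays labelled HO1-/- (limma adjusted p = 0.0439). Probe set 10404472, which lists 4 Serpinb9 genes, was 0.692 higher with HO2 shRNA, while the other 2 probe sets listing them were at 0.512 and 0.173, not called (limma adjusted p = 0.154 and 0.358). Of the 3 probe sets listing those 4 genes, each was lower in the arrays labelled HO1-/-, at -1.05, -1.32 and -1.63. No value of a single gene can be read from them.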

How the results depend on the processing

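Total counts of serpin genes called stayed within 1.5 times under all 16 alternatives, and no called difference reversed. Leaving out each array in turn gave 11 to 14 for the HO1 label against 15, 12 to 15 for HO2 shRNA against 14, 16 to 21 for combined against control (19), 13 to 17 for combined against the HO1 label (17), 10 to 15 for combined against HO2 shRNA (14) and 7 to 10 for the interaction (8). Of 87 calls, 64 were kept under every alternative and 23 lost under at least 1. Fitting all probe sets together gave 10 for the HO1 label. Counts in 1 direction moved further: falls with the HO1 label were 4 in the fit of all probe sets and 4 without HO1-/- replicate 1, falls with HO2 shRNA were 1 without dim genes, rises of combined against HO2 shRNA were 10 with array weights, and positive interactions were 1 without HO2 shRNA replicate 1 and 1 in the fit of all probe sets. With the replicate number as a block the counts were 14, 14, 19, 16, 13 and 8, in the order of comparisons HO1 label, HO2 shRNA, combined against control, against the HO1 label and against HO2 shRNA, and interaction. Deviations of same-numbered arrays correlated between -0.261 and 0.122, and the numbers were not used as a pairing. With 2 arrays a group, swapping the numbers in 1 group only flips the sign of its correlations. Whether arrays of different numbers share a preparation was not tested. With 2 arrays a group, small differences in dim genes may be missed.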

Other observations

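Genes of protease inhibitors outside the serpin family moved in the same arrays. Of 23 measured, 11 rose and 1 fell with the HO1 label (median 0.23, beside -0.041 for all genes, of which 12.8% were called), 13 rose and 5 fell with HO2 shRNA in HO1+/+ cells (median 0.40, beside -0.066, with 33.2% of all genes called), and 12 rose and 4 fell with HO2 shRNA in cells labelled HO1-/- (median 0.37, beside 0.014, with 23% of all genes called). Pzp, for a broad inhibitor that traps proteases in plasma, rose by 1.76 with the HO1 label and by 2.69 with HO2 shRNA in HO1+/+ cells. Mug1, of the same family, was at -0.11, not called, with the HO1 label and rose by 2.94 with HO2 shRNA. Hrg, for histidine-rich glycoprotein, rose by 3.54 and Itih4, of the inter-alpha inhibitor family, by 2.60 with HO2 shRNA in HO1+/+ cells. The interaction was called for 10 of the 23, 1 positive and 9 negative, and for 12.2% of all genes. The negative ones included Itih4 (-1.16) and Pzp (-1.01).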
